A study of Mus musculus with 6 samples.

Results

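The genes described here carry, store and move iron in the liver. They are 10 genes named by symbol, Fth1, Ftl1, Trf, Tfrc, Slc11a2, Steap4, Slc40a1, Cp, Slc25a37 and Flvcr1, and all 10 had an entry among the 22183 gene symbols of the deposited count table. Their RNA was measured by sequencing in 6 mouse liver samples, 3 labelled PBS and 3 labelled DOX. Every sample, controls included, carried the genotype BucheKI/KI-Hep, given by the series as an overexpression of butyrylcholinesterase in hepatocytes, and every sample is labelled as treated with DDC. DDC usually stands for a porphyrinogenic compound that blocks the last step of heme synthesis, DOX usually for doxycycline and PBS for phosphate-buffered saline, but the labels expand none of them, give no dose, age or sex, and do not explain the title prefix S2W. No sample without DDC or without the knock-in is analysed here, so the comparison of DOX with PBS cannot tell apart the raised enzyme and the DOX agent itself.

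Cells keep spare iron inside ferritin, a shell built from heavy chains (Fth1), which oxidise the metal, and light chains (Ftl1), which help it to mineralise. Hepatocytes secrete transferrin (Trf), the plasma iron carrier, and take up loaded transferrin through its receptor (Tfrc). Inside the cell a reductase of the STEAP family such as Steap4 and the transporter DMT1 (Slc11a2) bring the iron into the cytosol, ferroportin (Slc40a1) is the exporter, and the ferroxidase ceruloplasmin (Cp) oxidises the iron that leaves. Mitoferrin 1 (Slc25a37) carries iron into mitochondria, and Flvcr1 was described as a heme exporter and later also as a choline transporter. When iron is scarce, iron regulatory proteins bind a hairpin in some of these transcripts, the iron-responsive element. Bound near the start of a message it blocks translation, as for ferritin and ferroportin, and bound after the coding region it protects the message from decay, as for Tfrc.

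The hairpins are shown because, where one was found, its position bears on whether abundance or translation of the message is known to follow iron. UTRs of 21697 protein-coding mouse genes (GENCODE M21 annotation, assembly GRCm38) were searched on the transcript strand for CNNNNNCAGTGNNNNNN, with all 5 base pairs formed across the loop (G-T pairs allowed) and at least 4 of 6 pairs below the bulged C. A site was found in 22 genes, or 0.101% of them, and in 4 of the 10 iron genes. Capitals mark the bulged C and the CAGTGN loop of each 30-base site, written 5′ to 3′ as DNA.
Fth1, 5′ UTR, chr19:9982732-9982761, plus strand: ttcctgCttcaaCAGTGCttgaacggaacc
Ftl1, 5′ UTR, chr7:45459778-45459807, minus strand: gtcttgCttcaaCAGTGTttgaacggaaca
Slc40a1, 5′ UTR, chr1:45925464-45925493, minus strand: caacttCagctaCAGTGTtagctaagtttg
Tfrc, 3′ UTR, chr16:32631219-32631248, plus strand: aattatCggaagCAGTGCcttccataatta
Tfrc, 3′ UTR, chr16:32631598-32631627, plus strand: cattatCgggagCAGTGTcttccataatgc
Tfrc, 3′ UTR, chr16:32631663-32631692, plus strand: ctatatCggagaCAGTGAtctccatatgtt
Tfrc, 3′ UTR, chr16:32631710-32631739, plus strand: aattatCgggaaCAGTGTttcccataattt
The sites of both ferritin chains were identical at 26 of 30 bases, whereas the Slc40a1 site matched either of them at only 13. The 4 Tfrc sites lay within 521 bases of the 3′ UTR, and any pair of them was identical at 18 to 25 bases. A match describes letters in the annotated transcript. Only complete transcripts of the basic annotation were searched, and sites that crossed an exon junction or lacked the full 30 bases were left out. A gene without a reported site may therefore still hold this combination of letters and pairing. Elements with other letters, or with fewer than 5 pairs across the loop, were not sought, so the search does not sort all 10 genes.

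Library totals ranged from 32476725 to 41921404 counts. All 10 iron genes passed the filter on low counts, and the lowest count behind any value was 412, for Flvcr1. Normalised read counts below are in CPM (a gene's count relative to its library's total, with TMM scaling for composition), with the SD over a group's 3 libraries. The gene described as overexpressed, Bche, checked the labels, since its mean of 187 ± 16.5 CPM in PBS became 1856 ± 87.7 CPM with DOX (SD, n = 3). All 10 hepatocyte markers were measured, with summed levels of 94491 to 100886 CPM in PBS and 100696 to 124635 CPM in DOX libraries. Of the 10, 4 rose, 0 fell and 6 did not pass, beside 13.5% higher and 14.0% lower over all genes tested. Most of the sum was Alb, at 71321 ± 1180 and 82252 ± 10900 CPM (SD, n = 3), which did not pass (edgeR adjusted p = 0.376). Nothing in the labels states that libraries of a group are separate animals, so p-values reflect the spread among these libraries, which may be technical.

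Among the 10 iron genes, Steap4 and Tfrc fell in DOX samples and 0 rose. A gene was called where edgeR's quasi-likelihood test, run on 14681 genes, gave an adjusted p below 0.05. The count of risen genes was also 0 at an unadjusted p under 0.05 and with DESeq2. It was 0 with limma too, but that is a weak check, since limma ran on FPKM without correction for composition. There the median log2 fold change of all genes was -0.089 for log2(FPKM + 1) and -0.15 for log2(FPKM + 0.1). Over all tested genes the same rule called 27.5%, of which 13.5% of genes were higher and 14.0% lower, so a count of 2 in 10 was not above the background. Slc11a2 did not pass, and neither did the storage, carrier, export and mitochondrial genes. By unadjusted p (under 0.05), Ftl1 and Slc11a2 were also lower. The median log2 fold change of the 10 was -0.066, beside -0.0065 over all genes tested. Without the composition correction (scaling by library size alone), the median of all genes moved to -0.16, and Ftl1 and Slc11a2 then passed as well. Because limma on FPKM shares that scaling, a pass there is not separate from a pass by library size alone.

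**Figure D1:**
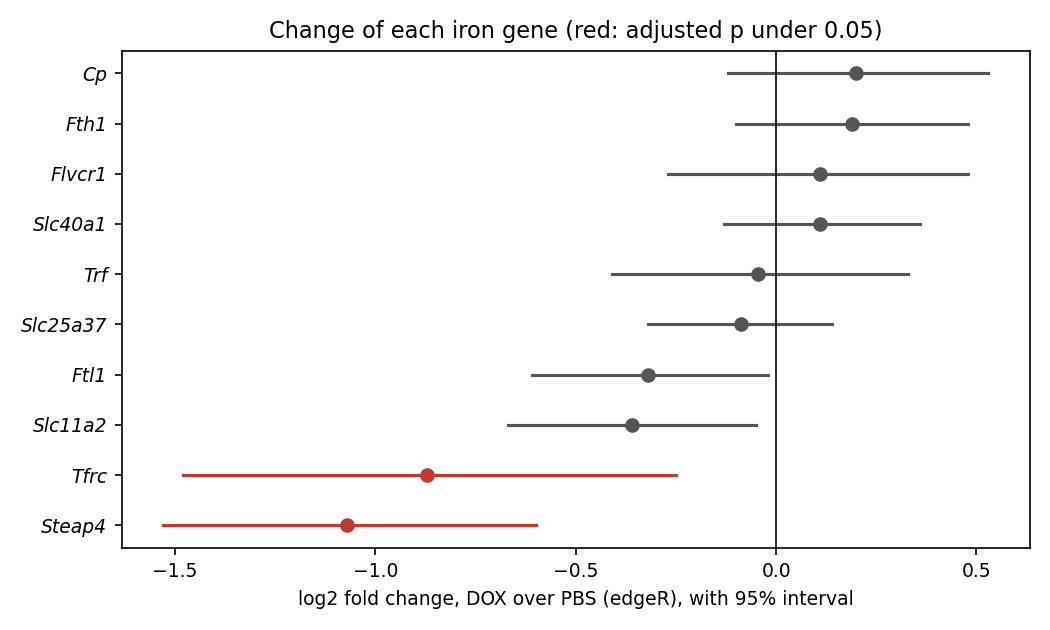
Log2 fold change of DOX over PBS samples for the 10 iron genes (points) with the 95% interval of the edgeR fit (lines), red where the adjusted p was under 0.05. Steap4 (-1.07) and Tfrc (-0.87) lie to the left of 0, and the intervals of 6 of the other 8 genes span 0.

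Ferritin messages were among the most abundant of the group. Neither chain passed the test, although PBS and DOX libraries did not overlap for either. Fth1 (chr19:9980600-9985111) stood at 2509, 2473 and 2263 CPM in PBS 1 to 3 and at 3040, 2626 and 2604 CPM in DOX 1 to 3. Every DOX library lay above every PBS library, with DOX 1 the highest. The difference did not pass (log2 fold change 0.19, SE 0.13, edgeR adjusted p = 0.313, 95% interval -0.10 to 0.48). The light chain lay the other way, with Ftl1 (chr7:45457944-45459886) at 3293, 3773 and 3167 CPM in PBS 1 to 3 and 2849, 2626 and 2744 CPM in DOX 1 to 3. Here every DOX library lay below every PBS library, and PBS 2 was the highest. Its log2 fold change of -0.32 did not pass (SE 0.14, edgeR adjusted p = 0.104), and the adjusted p ran from 0.0214 to 0.311 over the alternatives. It was under 0.05 with DESeq2 (0.0217), by library size alone (0.0214) and with limma on log2(FPKM + 1) or log2(FPKM + 0.1) (0.0422 and 0.0378). Of these settings, only DESeq2 corrected for composition. Together 4 of the 10 iron genes had groups that did not overlap, the other 2 being Steap4 and Tfrc, against 44.1% of all genes tested.

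Because both chains come from the same library, their ratio does not depend on how libraries are scaled. On the deposited FPKM scale, which divides counts by gene length, Fth1 over Ftl1 was 0.785, 0.675 and 0.736 in PBS 1 to 3 and 1.10, 1.03 and 0.977 in DOX 1 to 3. Light chain message exceeded heavy chain message in every PBS library, and the chains were near parity in DOX samples. The mean ratio was 0.732 ± 0.055 in PBS and 1.04 ± 0.061 in DOX (SD, n = 3 each), a DOX mean 1.41 times the PBS mean. A two-sided exact permutation test gave p = 0.1, the smallest value that 3 libraries against 3 allow. This ratio was chosen after the values of the genes had been seen. Leaving out any single library gave 1.36 to 1.47 times, with the groups still apart. Every DOX library already lay above every PBS library for Fth1 and below for Ftl1. The separation of the ratio, with or without a library, and its p followed from that and add no support. Processed copies of both ferritin genes exist in the mouse genome. The single copy listed by name in the table, Ftl1-ps2, held at most 3 counts in a library, and how reads shared between copies were counted is not given in the sources used here, so both ferritin values are uncertain in that respect.

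**Figure D2:**
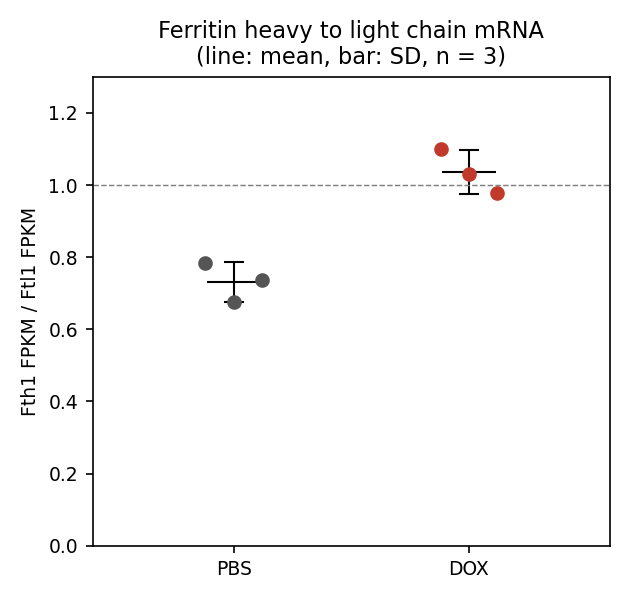
Ratio of Fth1 to Ftl1 message in each library, from deposited FPKM values (points), with the group mean (line) and SD (bar), n = 3. PBS libraries lie between 0.675 and 0.785, and DOX libraries between 0.977 and 1.10, around the dashed line of equal levels.

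Transferrin, the plasma carrier, was the most abundant message of the group. Trf (chr9:103208876-103230286) took 2.59 to 3.02% of all counts in PBS and 2.09 to 2.76% in DOX libraries. Its level was 26042, 23956 and 29676 CPM in PBS 1 to 3 and 26097, 29587 and 21577 CPM in DOX 1 to 3. The groups overlapped throughout, with DOX 3 the lowest and PBS 3 the highest. A log2 fold change of -0.044 (SE 0.17, edgeR adjusted p = 0.872) came with a 95% interval of -0.41 to 0.33, and it was 0.068 without DOX 3 and 0.042 without PBS 3.

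Tfrc, the transferrin receptor gene (chr16:32608896-32632794), fell 1.82-fold in DOX samples. Its level was 35.6, 70.1 and 56.4 CPM in PBS 1 to 3 and 22.7, 34.8 and 31.4 CPM in DOX 1 to 3. The groups did not overlap, but PBS 1 lay just above DOX 2. On the log2 scale the change was -0.87 (SE 0.26, edgeR adjusted p = 0.0455), with a 95% interval of -1.48 to -0.25. This call was marginal. It did not hold without PBS 2 (adjusted p = 0.0849), PBS 3 (0.124), DOX 1 (0.12), DOX 2 (0.0877) or DOX 3 (0.0888), nor with no filter on low counts in edgeR (0.163) or limma (0.0687), in a range of 0.00104 to 0.163. The log2 fold change stayed negative in all 14 alternatives, from -1.09 to -0.64.

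Tfrc is also a gene of dividing cells, activated lymphocytes and red cell precursors, so markers of these were measured beside it. Over all genes tested, 13.5% were higher and 14.0% lower, which stand beside each marker count here. Of 12 proliferation markers, 10 fell, and their summed level was 50.8 to 78.4 CPM in PBS and 23.9 to 40.0 CPM in DOX libraries, with none at 0 in every library. Mki67, a marker of cycling cells, went from 12.9 ± 2.26 to 5.03 ± 1.11 CPM (SD, n = 3; edgeR adjusted p = 0.000855), while Rrm2, the most abundant of the list over both groups together, stood at 9.81 ± 4.21 and 11.7 ± 3.68 CPM (adjusted p = 0.62). Of 11 lymphocyte markers 8 could be tested, and their sum was 16.5 to 18.8 CPM in PBS and 8.98 to 14.2 CPM in DOX libraries. Jchain made up most of that sum, with means of 10.5 ± 2.14 and 7.97 ± 2.24 CPM (SD, n = 3). Nkg7 and Cd79b fell, with log2 fold changes of -1.54 and -1.20, while Jchain and Cd4 did not pass (edgeR adjusted p = 0.188 and 0.0588). Nkg7 (0.855 ± 0.199 and 0.292 ± 0.0567 CPM) and Cd79b (1.51 ± 0.304 and 0.654 ± 0.0754 CPM) were low in PBS and DOX samples (SD, n = 3). Without DOX 1 Jchain passed (0.0444). Cd4 passed with DESeq2 (0.0408), by library size alone (0.0312) and with limma on log2(FPKM + 1) or log2(FPKM + 0.1) (0.0208 and 0.0216). The Nkg7 call was lost without PBS 1, PBS 3, DOX 1 or DOX 2 (0.0512 to 0.0813), and that of Cd79b without PBS 1, PBS 2 or DOX 3 (0.0596 to 0.0919). Of 13 red cell markers 7 could be tested, and 1, Klf1, rose. The red cell sum was 156 to 181 CPM in PBS and 138 to 351 CPM in DOX libraries, highest in DOX 2, and Hbb-bs and Hba-a1 passed only without DOX 1 (edgeR adjusted p = 0.0113 and 0.0136, beside 0.228 and 0.346). Their part in the level of Tfrc was not tested, and in whole liver fewer cells of a type cannot be told apart from less RNA per cell.

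Slc11a2, the gene of the iron transporter DMT1 (chr15:100387898-100424209), stood at 31.1, 44.1 and 45.0 CPM in PBS 1 to 3. In DOX 1 to 3 it stood at 29.0, 33.7 and 31.1 CPM. PBS 1 fell among the DOX libraries, and PBS 2 and 3 lay above all of them, which matches Tfrc in that PBS 1 was the lowest PBS library. The log2 fold change of -0.36 did not pass (SE 0.14, edgeR adjusted p = 0.0797, 95% interval -0.67 to -0.049). Without PBS 1 it passed (adjusted p = 0.0171), as it did by library size alone (0.016), with no filter in edgeR (0.0295) and with limma on log2(FPKM + 1) (0.0433) or log2(FPKM + 0.1) (0.0392), in a range of 0.016 to 0.256. Library size alone and the limma settings carry no composition correction. Slc11a2 makes transcripts with and without an iron-responsive element, and counts per symbol do not separate them.

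Steap4, a metalloreductase of iron and copper that is also known as an inflammation-responsive gene, showed the largest change of the 10. At chr5:7960472-7982213, it gave 171, 224 and 264 CPM in PBS 1 to 3 and 102, 134 and 78.8 CPM in DOX 1 to 3. All DOX libraries lay below all PBS libraries, with DOX 2 and PBS 1 the nearest pair. The fall was 2.09-fold (log2 fold change -1.07, SE 0.21, edgeR adjusted p = 0.00604, 95% interval -1.53 to -0.60). It passed in all 14 alternatives, with adjusted p from 2.76e-06 to 0.0367. Profiles were compared among tested genes outside the group with a mean of at least 1 CPM, leaving out predicted genes, clone names and pseudogenes. The closest to that of Steap4 over the 6 libraries were those of Crat, N4bp3 and Acnat1. Their root mean square differences from it were 0.059, 0.10 and 0.10 on the log2 CPM scale after centring each gene on its own mean. Crat encodes carnitine acetyltransferase and went from 85.2 ± 15.9 to 40.3 ± 11.1 CPM (SD, n = 3), and the chosen measure of likeness uses the same DOX and PBS values as the test.

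Steap4 is also expressed in hepatic stellate cells and in fat tissue, so markers of these were set beside it. Beside each marker count here stand 13.5% higher and 14.0% lower over all genes tested. Of 10 other stellate cell markers, Lrat, Colec11 and Pdgfrb fell (log2 fold changes of -0.74, -0.65 and -0.45), Hhip rose (1.39) and 6 did not pass. The call of Lrat was lost without PBS 1 or PBS 3 (edgeR adjusted p = 0.0591 and 0.0514), that of Colec11 without PBS 1, PBS 2 or DOX 3 (0.0872, 0.081 and 0.0585) and that of Pdgfrb without PBS 1 or DOX 3 (0.079 and 0.0631). Among the 6 that did not pass were the most abundant, Rgs5 (0.12, and -0.043 by library size alone) and Ecm1 (0.60). Ecm1 passed with DESeq2 (adjusted p = 0.0192) and without PBS 1 (edgeR adjusted p = 0.0286). The stellate sum was 389 to 531 CPM in PBS and 401 to 507 CPM in DOX libraries, and none of the markers was at 0 in every library. Rgs5 and Ecm1 contributed means of 116 ± 32.8 and 85.2 ± 24.9 CPM to it in PBS samples (SD, n = 3). The part of stellate cells in the level of Steap4 was not tested. Of the fat tissue markers, a list added after the values were seen, 5 of 8 were in the table and 2 could be tested. The sum of these 2, Fabp4 and Cidea, was 28.6 to 33.6 CPM in PBS and 30.5 to 38.3 CPM in DOX libraries. Nearly all of it was Fabp4, with means of 29.3 ± 2.33 and 32.4 ± 4.43 CPM (SD, n = 3; log2 fold change 0.15, edgeR adjusted p = 0.392). Cidea lay the other way, at 1.71 ± 0.365 and 0.912 ± 0.205 CPM (SD, n = 3), with every DOX library below every PBS library. Its log2 fold change of -0.90 did not pass (edgeR adjusted p = 0.0578). Adipoq, the defining fat cell gene, had 0 counts in 5 libraries and 1 count in PBS 2. Neutrophil markers, which follow inflammation, moved both ways. Retnlg, Ngp and Mmp8 rose, Csf3r and Cxcr2 fell, and 4 of 11 were too low to test. Retnlg (0.598 ± 0.332 and 2.38 ± 1.51 CPM) and Ngp (0.0918 ± 0.0921 and 0.749 ± 0.348 CPM) were low in PBS and DOX samples (SD, n = 3). The groups overlapped for Retnlg. The calls of Retnlg, Ngp, Mmp8 and Cxcr2 were not examined under the alternatives. S100a9 stood at 16.1 ± 4.31 and 24.7 ± 13.0 CPM (SD, n = 3; edgeR adjusted p = 0.324).

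**Figure D3:**
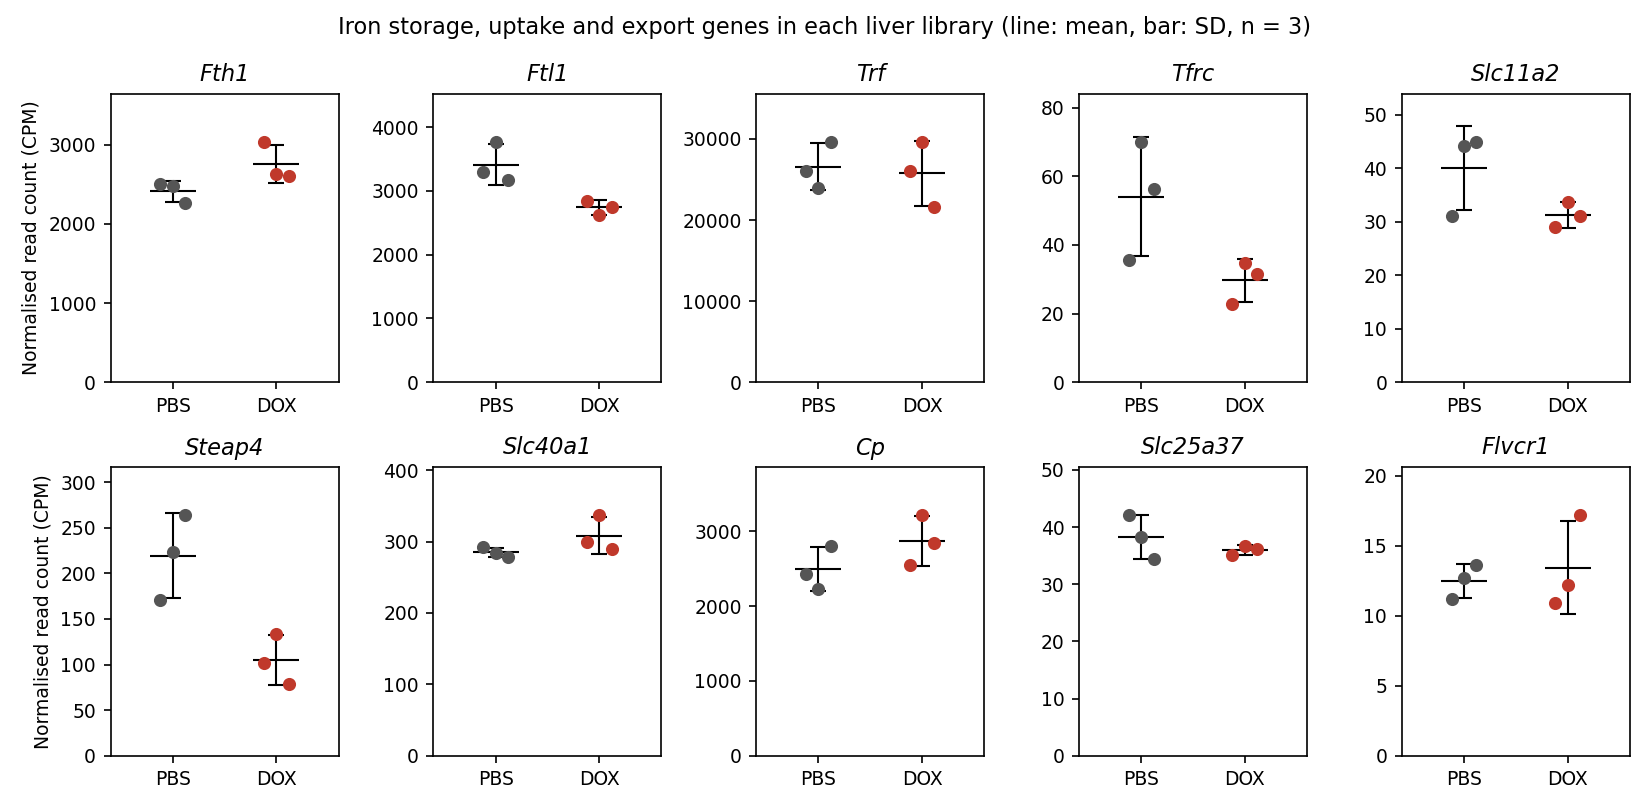
Normalised read counts (CPM, vertical axes from 0) of the 10 iron genes in each of 3 PBS (grey) and 3 DOX (red) libraries, with group mean (line) and SD (bar). Steap4, Tfrc, Ftl1 and Fth1 are the genes whose groups do not overlap, and Slc40a1 lies at 279 to 337 CPM over both groups.

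The exporter did not pass the test. Slc40a1, which encodes ferroportin (chr1:45908070-45926532), stood at 292, 284 and 279 CPM in PBS 1 to 3 and 299, 337 and 289 CPM in DOX 1 to 3. DOX 2 was the highest, and DOX 3 lay inside the PBS range. The edgeR log2 fold change was 0.11 (SE 0.11, adjusted p = 0.49, 95% interval -0.13 to 0.36), and it was -0.047 by library size alone. Kupffer cells, the resident liver macrophages, are a major site of ferroportin. Their marker counts stand beside 13.5% higher and 14.0% lower over all genes tested. Of 11 Kupffer markers Vsig4, Marco and Cd163 rose, Cd5l fell and 7 did not pass, among them C1qc (edgeR adjusted p = 0.0523). C1qc passed with DESeq2 (adjusted p = 0.0171) and without DOX 2 (edgeR adjusted p = 0.0164). The Marco call was lost with limma at either FPKM pseudocount (0.0555 and 0.0509) and with limma without the filter (0.11). The Cd5l call was lost without PBS 1, PBS 2 or DOX 3 (0.0522, 0.0683 and 0.0627). The Kupffer marker sum was 1363 to 1503 CPM in PBS and 1478 to 1660 CPM in DOX libraries, and none of the markers was at 0. The part of Kupffer cells in the Slc40a1 level was not tested.

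Ceruloplasmin message was abundant and did not pass. Cp (chr3:19956933-20009750) gave 2430, 2233 and 2811 CPM in PBS 1 to 3 and 2548, 3218 and 2845 CPM in DOX 1 to 3. DOX 1 lay within the PBS range, and the other DOX libraries lay above it. Its log2 fold change was 0.20 (SE 0.15, edgeR adjusted p = 0.329, 95% interval -0.12 to 0.53).

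The mitochondrial importer and the heme exporter were low and overlapped between groups. Slc25a37, mitoferrin 1 (chr14:69241848-69285544), stood at 42.1, 38.2 and 34.5 CPM in PBS 1 to 3 and 35.1, 36.7 and 36.2 CPM in DOX 1 to 3. The DOX libraries lay close together inside the PBS range (log2 fold change -0.087, SE 0.11, edgeR adjusted p = 0.574). Flvcr1 (chr1:191005832-191026190) stood at 11.2, 12.7 and 13.6 CPM in PBS 1 to 3. In DOX 1 to 3 it was 10.9, 12.2 and 17.2 CPM, so DOX 3 alone lay above the PBS range. Its log2 fold change of 0.11 (SE 0.17, edgeR adjusted p = 0.677) became -0.11 without DOX 3, and -0.044 by library size alone.

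Levels of different genes were compared per length, as deposited FPKM. In PBS samples the order was Trf at 11998 ± 937, Ftl1 at 3718 ± 444, Fth1 at 2710 ± 227, Cp at 367 ± 31.8, Slc40a1 at 86.3 ± 4.32 and Steap4 at 73.6 ± 14.1 FPKM (SD, n = 3). Tfrc followed at 11.1 ± 3.65, then Slc25a37 at 8.65 ± 1.06, Slc11a2 at 6.71 ± 1.24 and Flvcr1 at 2.89 ± 0.228 FPKM (SD, n = 3). Ranges overlapped between Slc40a1 and Steap4, between Tfrc and Slc25a37 and between Slc25a37 and Slc11a2, and the other neighbours were apart. In DOX samples 2 neighbouring pairs changed places. Fth1 at 2769 ± 227 and Ftl1 at 2675 ± 129 FPKM overlapped, and Slc25a37 at 7.30 ± 0.235 FPKM came before Tfrc at 5.46 ± 1.16 FPKM, with no overlap (SD, n = 3). Steap4, at 31.6 ± 7.85 FPKM, then lay wholly below Slc40a1 at 83.6 ± 5.71 FPKM.

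Other genes of iron handling were counted in the same fit, from 5 lists of 66 genes in all. Of the 60 that could be tested, 18 rose and 7 fell, with a median log2 fold change of 0.13. Beside this stand 13.5% higher and 14.0% lower over all genes. By library size alone 11 of them were higher and 10 lower. Hepcidin, the liver hormone that binds ferroportin and drives its degradation, had one of the larger rises. Hamp went from 421, 313 and 379 CPM in PBS 1 to 3 to 1068, 1097 and 1432 CPM in DOX 1 to 3 (log2 fold change 1.69, SE 0.16, edgeR adjusted p = 9.77e-05). Of 10 tested genes of the hepcidin axis, 5 rose and 5 did not pass, with a median of 0.40. The others that rose were Smad7 (1.14) and Id1 (1.33), targets of BMP signalling, the ligand gene Bmp2 (0.40) and the transferrin sensor Tfr2 (0.40). Bmp2 did not pass without PBS 1, PBS 2, PBS 3 or DOX 1 (edgeR adjusted p = 0.0657, 0.124, 0.141 and 0.178), nor Tfr2 without PBS 1, PBS 2, DOX 1 or DOX 3 (0.14, 0.139, 0.0763 and 0.102). By library size alone neither passed (0.208 and 0.136), and over the alternatives the ranges were 0.0343 to 0.297 for Bmp2 and 0.00762 to 0.176 for Tfr2.

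Of 8 tested genes of iron sensing and ferritin handling, 1 rose, the iron chaperone gene Pcbp2 (log2 fold change 0.48, edgeR adjusted p = 0.021), and its call was lost without PBS 1 (0.0751), PBS 2 (0.0824), DOX 1 (0.0756) or DOX 3 (0.0758), in a range of 0.00146 to 0.188. The regulatory protein genes Aco1 and Ireb2 stood at 253 ± 34.8 and 63.6 ± 4.28 CPM in PBS and at 277 ± 24.7 and 60.0 ± 3.77 CPM in DOX (SD, n = 3). Their log2 fold changes were 0.13 and -0.085 (edgeR adjusted p = 0.499 and 0.56), and that of Aco1 was -0.026 by library size alone. The list median was 0.040, and its count of 1 in 8 stands beside 13.5% higher over all genes tested.

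Among 11 tested genes of other uptake and reduction, 2 rose and 2 fell, with a median of 0.13. Over all genes tested, 13.5% were higher and 14.0% lower. Scara5, a ferritin receptor, rose, with means of 0.923 ± 0.159 and 5.12 ± 2.06 CPM (SD, n = 3) and a log2 fold change of 2.46 (edgeR adjusted p = 0.000582). The reductases of the STEAP family split, since Steap3 rose (0.56) while Steap2 fell (-0.45), as Steap4 did. Mcoln1, a lysosomal channel, also fell (-0.37), although not without PBS 2 (adjusted p = 0.0604), PBS 3 (0.0891), DOX 1 (0.0649) or DOX 3 (0.0558), in a range of 0.00349 to 0.0891, and Steap2 not without PBS 2 (0.0538), in a range of 0.00278 to 0.0538. Slc39a14, the importer of iron that is not bound to transferrin, did not pass (0.14, adjusted p = 0.468, and -0.014 by library size alone).

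Genes of heme handling are counted beside 13.5% higher and 14.0% lower over all genes tested. Of 13 tested genes 3 rose and 4 fell, with a median of -0.19. Both heme oxygenases, which release iron from heme, rose, Hmox1 from 196 ± 23.7 to 360 ± 29.1 CPM and Hmox2 from 58.6 ± 3.81 to 96.6 ± 7.07 CPM (SD, n = 3; edgeR adjusted p = 0.00092 and 0.000855). Cd163, the macrophage receptor for hemoglobin, rose 3.32-fold. The 4 that fell move heme or porphyrins, namely Flvcr2 (-0.45), Slc48a1 (-0.31), Abcg2 (-0.32) and Abcb6 (-0.34). Each of these 4 calls was lost without PBS 2, PBS 3, DOX 1 or DOX 3, with edgeR adjusted p of 0.0708 to 0.119 for Flvcr2, 0.0512 to 0.199 for Slc48a1, 0.0527 to 0.115 for Abcg2 and 0.0646 to 0.126 for Abcb6. Abcg2 was also lost without PBS 1 (0.0642), and Slc48a1 without PBS 1 (0.117) or DOX 2 (0.0694). Flvcr2 and Slc48a1 fall outside the naming rule and are given to complete the count.

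Of 18 tested genes of mitochondrial iron and iron-sulfur cluster assembly, 7 rose and 1 fell, with a median of 0.13, beside 13.5% higher and 14.0% lower over all genes. The count that rose was 3 by library size alone (Cisd3, Lyrm4 and Slc25a28) and 1 with limma on log2(FPKM + 1) or log2(FPKM + 0.1) (Cisd3), with Iba57 lower in each. Slc25a28, mitoferrin 2, rose, with means of 22.6 ± 1.81 and 33.7 ± 4.99 CPM (SD, n = 3) and a log2 fold change of 0.57 (edgeR adjusted p = 0.0074), while mitoferrin 1 of the main group did not pass. Cisd3 (0.61), Lyrm4 (0.73) and Isca2 (0.45) also rose. Iba57, a late assembly factor, fell 2.02-fold (edgeR adjusted p = 0.00328). The Lyrm4 call was lost without DOX 3 (0.0551). With limma on log2(FPKM + 1) the adjusted p was 0.0596 for Slc25a28, 0.0602 for Lyrm4 and 0.0585 for Isca2.

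**Figure D4:**
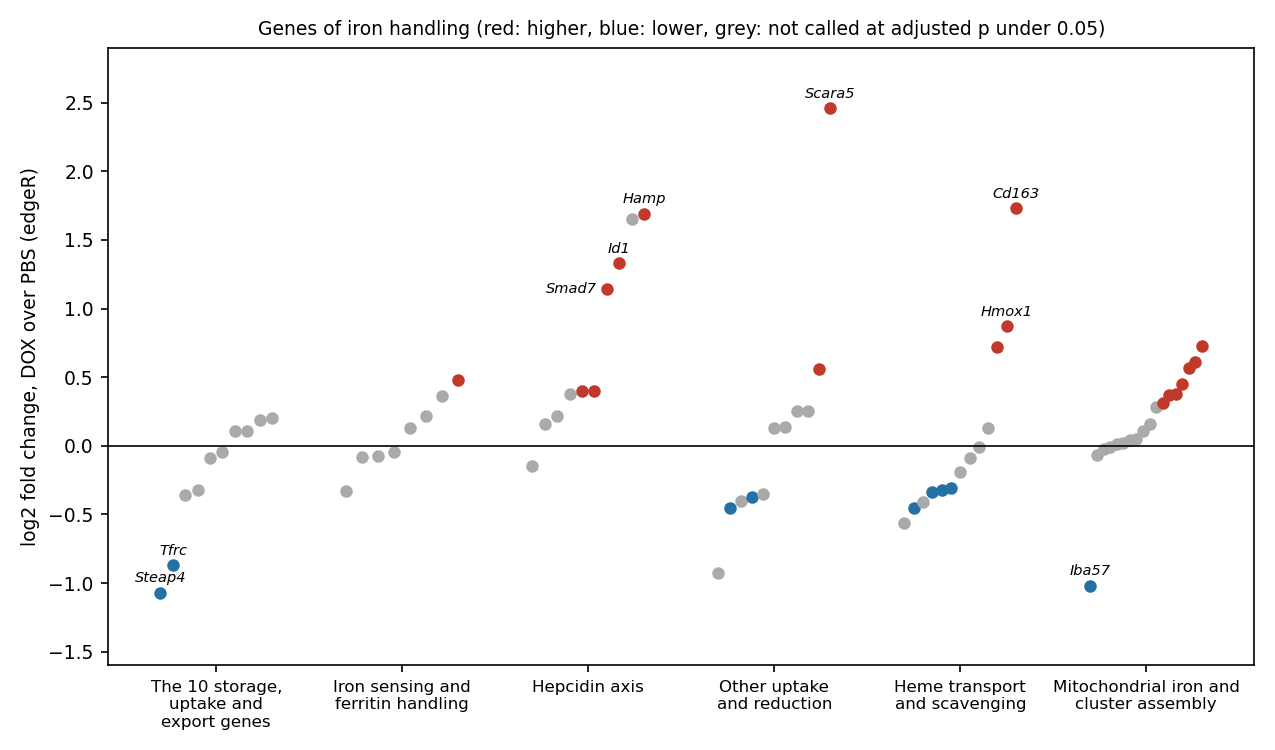
Log2 fold change of DOX over PBS samples (edgeR, vertical axis) for each tested gene of the 10 iron genes and of 5 other lists, ordered within a list, red where higher and blue where lower at an adjusted p under 0.05. Hamp (1.69), Cd163 (1.73) and Scara5 (2.46) lie highest, and Steap4 (-1.07) and Iba57 (-1.02) are the lowest of the called genes.

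Returning to the hairpins, 19 of the 22 genes with a site could be tested. With a site in the 5′ UTR, Fth1, Ftl1, Slc40a1 and Ppp1r1b (0.30) did not pass in edgeR. Of these, Ftl1 alone had an unadjusted p under 0.05, and Ftl1 alone passed with DESeq2 or with limma after the filter. In the 3′ UTR class, Tfrc, Camk2n1 (-0.36), Glyat (-0.34) and Wdr1 (-0.28) fell and Trim23 rose (0.44), of 14 tested. Those 5 calls of 14 stand beside 27.5% of all genes, and the 4 that fell and 1 that rose beside 14.0% lower and 13.5% higher. Without PBS 2 all 5 were lost (Tfrc 0.0849, Camk2n1 0.115, Glyat 0.123, Wdr1 0.0881 and Trim23 0.0825 as edgeR adjusted p), and also without DOX 3 (0.0888, 0.124, 0.08, 0.133 and 0.0643). Other single libraries ended some of them, namely PBS 1 (Glyat 0.062, Wdr1 0.134), PBS 3 (Tfrc 0.124, Camk2n1 0.118, Wdr1 0.135, Trim23 0.078), DOX 1 (Tfrc 0.12, Glyat 0.0836, Wdr1 0.095, Trim23 0.0521) and DOX 2 (Tfrc 0.0877, Camk2n1 0.0823). Trim23 did not pass by library size alone (edgeR adjusted p = 0.117) or with limma on log2(FPKM + 1) or log2(FPKM + 0.1) (0.116 in each). With no filter in edgeR, Tfrc (0.163) and Wdr1 (0.0782) did not pass. Slc11a2 had no site that the search kept.

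**Figure D5:**
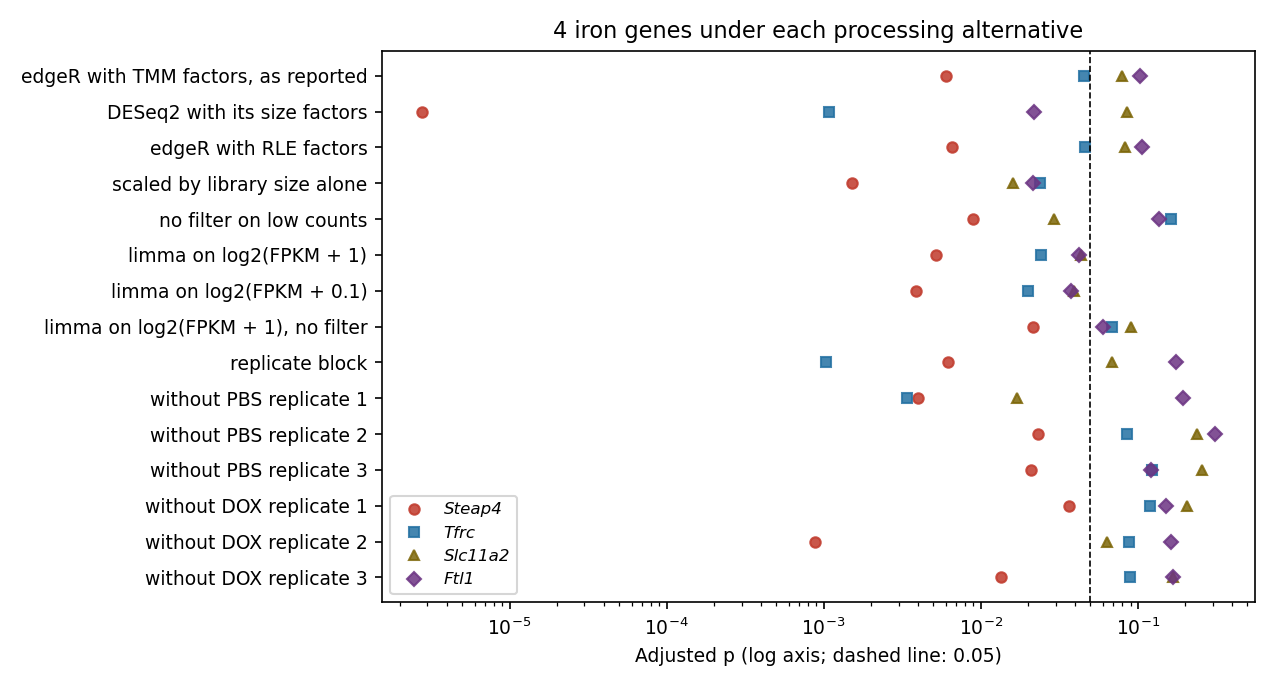
Adjusted p (log axis) of Steap4, Tfrc, Slc11a2 and Ftl1 under the reported edgeR test and each of 14 alternatives (rows), with a dashed line at 0.05. Steap4 stays left of the line in every row, and the other 3 genes lie on both sides of it.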

How the data were processed

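Liver RNA of 6 mouse samples was sequenced from SMARTER mRNA-Seq libraries, per the labels' protocols. The authors deposited whole-number counts per gene symbol and an FPKM table. Count divided by library total and FPKM gave 1 length per gene in every library, so FPKM adds no measurement and carries no composition correction. The submitters' processing notes list GRCm38, mm10 and hg38 with no role. The aligner, counter, strand setting and annotation used are not given in the sources here. Columns were matched to samples by title, with 0 columns of other samples.

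Counts were tested with edgeR 4.0.16 (R 4.3.3, quasi-likelihood, robust, group as the only term). Genes passed filterByExpr (minimum count 10, minimum total 15), libraries were scaled by TMM (factors 1.02 to 1.08 in PBS, 0.933 to 0.97 in DOX), and Benjamini-Hochberg adjustment ran over 14681 genes. The procedure was tested on simulated data. Alternatives used DESeq2 1.42.0, limma 3.58.1 on log2(FPKM + 1) or log2(FPKM + 0.1), other scaling, no filter, a replicate block and leaving out single libraries. Intervals take no account of PCR duplicates.

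The 10 genes and all lists were chosen with earlier results of these data known. Named genes were the 10, Bche, per iron list up to 5 called genes by smallest p plus Hamp, Aco1, Ireb2, Hmox1, Slc25a28 and Slc39a14, the 2 most abundant markers of a list, and the 3 genes closest to the member of smallest p. Other names complete small counts, a choice made with their values in view. Gene positions are from RefSeq, GRCm38.p6. One gene that held a hairpin site is not reported here.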

Additional observations from a re-analysis of the deposited data

How the results depend on the processing

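For the 10 iron genes, 113 of 140 values under the alternatives kept both direction and side of the threshold, 7 lost a call (all Tfrc), 9 gained one (Ftl1 and Slc11a2) and 11 changed sign without a call. The count that fell was 4 by library size alone and with limma on log2(FPKM + 1) or log2(FPKM + 0.1), and 1 with limma without the filter. It ran from 1 to 3 when single libraries were left out, with 1 left (Steap4) without PBS 2, PBS 3, DOX 1, DOX 2 or DOX 3. Other iron genes that rose numbered 11 by library size alone, 10 with limma at either pseudocount and 8 with limma without the filter, and 12 to 19 with a library left out. Those that fell numbered 2 to 9 with a library left out, and 2 without PBS 2, PBS 3, DOX 1 or DOX 3. Over all genes, 1975 were higher and 2062 lower. By library size alone these were 1028 and 3429, with limma 917 and 3202 (pseudocount 1) or 948 and 3227 (pseudocount 0.1), and without the filter 537 were higher by limma. With a library left out they ran from 1208 to 2440 and from 1305 to 2348.

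Library numbers 1 to 3 recur in both groups, but same-numbered libraries did not deviate together (correlations 0.086, -0.073 and -0.13 for numbers 1 to 3), and not every library correlated best with its own number. The replicate block gave 1633 higher and 1849 lower genes, kept Steap4 and Tfrc as the iron genes that fell, and left 4 other iron genes lower.

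Sign changes were found in genes that were not called, among them Rrm2 with a reported log2 fold change of 0.26. By library size alone and with limma (+ 1, + 0.1, no filter) the log2 fold changes were -0.047, -0.047, -0.047 and -0.047 for Slc40a1, -0.044, -0.047, -0.067 and -0.047 for Flvcr1, -0.026, -0.024, -0.025 and -0.024 for Aco1, and -0.014, -0.013, -0.014 and -0.013 for Slc39a14. For the markers they were -0.10 in each for Apoa1 and -0.043, -0.028, -0.029 and -0.028 for Rgs5. With single libraries left out the values ran from -0.14 to 0.068 for Trf, -0.11 to 0.24 for Flvcr1, -0.029 to 0.15 for Apoa1, -0.02 to 0.37 for Rgs5 and -0.0023 to 0.63 for Rrm2. Counts of 412 or more per library lie behind each of the 10 genes, so the spread between libraries, more than counting, limits these values.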
